A study of Mus musculus with 36 samples.

Results

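Secretoglobins are small secreted proteins, and those of mouse saliva are known as androgen-binding proteins. A salivary androgen-binding protein is built from an alpha subunit, encoded by an Scgb1b gene, that is joined by disulfide bonds to a beta or gamma subunit, encoded by an Scgb2b gene. In the submandibular gland they are secreted by acinar cells, and in mice they are known for a role in recognition between animals. Described here are 7 genes, chosen by name, of the 29219 genes detected in 26 Drop-seq libraries: the alpha genes Scgb1b27, Scgb1b30 and Scgb1b26-ps and the beta and gamma genes Scgb2b27, Scgb2b26, Scgb2b1 and Scgb2b2. GENCODE vM21 gives Scgb1b26-ps and Scgb2b1 as unprocessed pseudogenes and the other 5 as protein coding. All 7 lie on mouse chromosome 7. In the exon records of the bulk tables (mm10), Scgb1b26-ps was at chr7:33958805-33959986, Scgb1b27 at chr7:34021483-34022881 and Scgb1b30 at chr7:34095431-34100837 on the plus strand, and Scgb2b26 at chr7:33943002-33945040 and Scgb2b27 at chr7:34011921-34013942 on the minus strand. Scgb2b1 at chr7:31263736-31265935 and Scgb2b2 at chr7:31302761-31304977, both on the plus strand, form a separate pair. All 7 genes were detected in every one of the 26 glands, and all 7 passed the low-count filter of every whole-gland comparison.

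The study asked how the cells of the submandibular gland change as a tumor forms. Control mice carried K14-Cre, in which the K14 promoter drives Cre in basal cells, and a Cre-inducible R26 EYFP reporter. Double-mutant mice carried the same Cre and reporter together with a β-catenin gain-of-function and a Bmpr1a loss-of-function allele, all on a C57BL/6 background, and developed tumors. Drop-seq, which captures single cells in droplets and counts transcripts by unique molecular identifiers (UMIs), was done on cells that had been dissociated, sorted by size and for the absence of the dead-cell dye DAPI, and fixed in methanol. Glands were taken at postnatal day 40 (P40), giving 6 control and 7 double-mutant libraries, and at day 90 (P90), again giving 6 and 7, from animals of either sex. CITE-seq RNA libraries, which measure cell surface epitopes beside RNA, came from 2 control and 2 double-mutant glands at P70. Bulk RNA-seq came from freshly dissected glands, 1 of a control female at P70 and 1 of a double-mutant female at P100.

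After filtering, 23346 of 26987 Drop-seq barcodes remained as cells, with 650301 to 6994504 UMIs per gland. The median per cell was 2062 UMIs among control cells and 1151 UMIs among double-mutant cells. Of the 325 pairs of libraries, 14 shared a barcode, and no pair shared more than 1. In 2 libraries the UMIs of Xist and of Y-linked genes went against the sex given in the label, double-mutant P40 replicate 1 and double-mutant P90 replicate 5. Both carry the same batch number in their titles, and their stage labels were not checked. Whole-gland tests of the Scgb2b26 share and of sex in double-mutant glands are given with and without them. Genotype was compared within cell types only with them included. Nothing in the labels ties a gland number to a litter, so p-values measure the spread between glands.

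The promoters of the 3 abundant members are shown because the alpha gene and both Scgb2b genes had the highest levels of all 7 and because the results below turn on the balance of Scgb2b26 and Scgb2b27. Each window runs from 250 bases before to 50 bases after the RefSeq start on GRCm38.p6 and is written 5′ to 3′ on the strand of the gene. All 7 members matched a RefSeq entry. The windows are chr7:34021231-34021530 on the plus strand for Scgb1b27, chr7:34013893-34014192 on the minus strand for Scgb2b27 and chr7:33944936-33945235 on the minus strand for Scgb2b26. Capitals mark the TATA motif with its overlapping variant described below, on either strand.
Scgb1b27: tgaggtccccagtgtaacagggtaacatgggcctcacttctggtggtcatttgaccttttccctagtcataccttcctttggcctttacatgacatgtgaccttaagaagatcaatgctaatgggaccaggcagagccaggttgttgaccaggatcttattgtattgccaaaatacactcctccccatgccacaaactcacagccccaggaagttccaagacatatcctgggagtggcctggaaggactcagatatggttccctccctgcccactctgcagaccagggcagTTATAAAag
Scgb2b27: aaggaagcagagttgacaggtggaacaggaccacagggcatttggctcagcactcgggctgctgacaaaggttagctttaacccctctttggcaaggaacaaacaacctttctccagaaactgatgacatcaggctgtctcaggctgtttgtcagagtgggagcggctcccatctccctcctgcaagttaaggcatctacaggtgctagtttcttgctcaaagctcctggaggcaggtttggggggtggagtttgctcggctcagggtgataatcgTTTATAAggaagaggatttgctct
Scgb2b26: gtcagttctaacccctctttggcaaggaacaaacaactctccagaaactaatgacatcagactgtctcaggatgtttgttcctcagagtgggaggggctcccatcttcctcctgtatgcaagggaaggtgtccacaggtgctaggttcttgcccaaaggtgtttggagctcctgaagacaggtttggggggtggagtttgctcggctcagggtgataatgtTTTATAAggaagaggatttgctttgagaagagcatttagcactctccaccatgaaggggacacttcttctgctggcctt

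The motif TATAAA on either strand was present in the windows of all 7 members and in 13.6% of the 32851 mouse promoters of the same length. The overlapping motif TTATAA, whose 2 strands read alike, was present in 6 of the 7 members and in 5.79% of all promoters. The TATAAA motif began 29 bases before the RefSeq start in Scgb2b26, 42 bases after it in Scgb1b27 and 26 bases after it in Scgb2b27, so the windows of the abundant members cover different stretches around it. The sequence TGTTCT read on either strand, which is part of the response element of the androgen receptor, was absent from these windows in all 3 abundant members and present in those of Scgb2b1 and Scgb2b2. It was found in 19.0% of all promoters, in 16 of 20 Scgb2b promoters and in 3 of 9 Scgb1b promoters. TGTTTGTTC, searched on either strand and chosen after these promoters had been read, was found in 18 of 20 Scgb2b promoters, in 0 of 9 Scgb1b promoters and in 0.499% of all promoters. The promoters of Scgb2b27 and Scgb2b26 were identical at 83.7% of 246 aligned bases, and those of Scgb1b27 and Scgb1b26-ps at 95.3% of 213 aligned bases.

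The 7 members together held 11174107 UMIs, 15.6% of all UMIs of the 26 glands. Scgb1b27, the alpha subunit gene, held 44.6% of the member UMIs, Scgb2b27 held 37.4% and Scgb2b26 held 17.7%. The other 4 members together held less than a hundredth of them, with 0.132% for Scgb1b26-ps, 0.0716% for Scgb2b1, 0.0535% for Scgb2b2 and 0.0432% for Scgb1b30. Levels are given as CPM, the UMIs of a gene per 1000000 UMIs of the gland. Drop-seq counts the ends of transcripts, so these values are not divided by gene length.

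Over the 26 glands Scgb1b27 lay between 23703 and 96041 CPM (median 59899 CPM). Scgb2b27 lay between 23662 and 85563 CPM (median 53161 CPM). Scgb2b26 spread more widely, between 3739 and 42624 CPM (median 22142 CPM). Ranked among all genes of a gland, Scgb1b27 stood between place 2 and place 7, Scgb2b27 between place 2 and place 9 and Scgb2b26 between place 6 and place 22. The order of the abundant members was not the same in every gland, since Scgb2b27 exceeded Scgb1b27 in control P40 replicates 3 and 6 and in double-mutant P40 replicate 5 and P90 replicates 5 and 6. Double-mutant P90 replicate 7 was highest for both Scgb1b27 and Scgb2b27, and control P40 replicate 1 was highest for Scgb2b26.

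**Figure D1:**
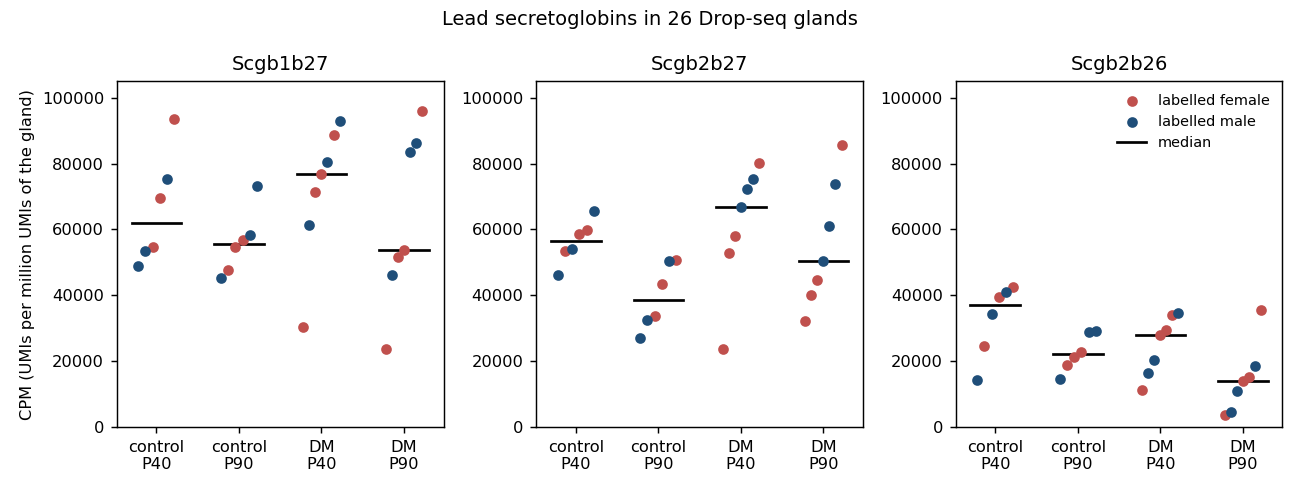
Levels of Scgb1b27, Scgb2b27 and Scgb2b26 in CPM on the y axis, by genotype and stage on the x axis (DM, double-mutant), with 1 point per gland coloured by labelled sex and a line at the median. The groups overlap for all 3 genes, and the 2 lowest Scgb2b26 values, 3739 and 4790 CPM, are double-mutant glands at P90.

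Alpha and beta or gamma transcripts stayed close to each other in number. The alpha share, that is Scgb1b UMIs as a percentage of all member UMIs, lay between 39.5% and 52.1% in control glands (median 45.0%) and between 32.9% and 54.5% in double-mutant glands (median 46.6%). The lowest value belonged to double-mutant P90 replicate 5, and the 2 genotypes otherwise covered nearly the same range. Across the 26 glands, Spearman's rho was 0.82 between Scgb1b27 and Scgb2b27, 0.60 between Scgb1b27 and Scgb2b26 and 0.41 between Scgb2b27 and Scgb2b26. These correlations describe glands that differ in depth and cell make-up.

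The first comparison asked whether the members differ between double-mutant and control glands. Scgb1b27 had 45410 CPM at the lowest, 55719 at the median and 93371 at the highest of the 12 control glands, and 23703, 74103 and 96041 CPM in the 14 double-mutant glands. For Scgb2b27 the lowest, median and highest values were 27154, 50595 and 65599 CPM in control and 23662, 59643 and 85563 CPM in double-mutant glands. For Scgb2b26 they were 14300, 26846 and 42624 CPM in control and 3739, 17571 and 35597 CPM in double-mutant glands. The genotypes overlapped for each of the 3 genes, and Scgb2b26 alone of the 3 had a lower median in double-mutant glands.

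In edgeR's quasi-likelihood test with sex and stage as covariates, none of the 7 members passed an adjusted p of 0.05, whereas 22% of the 10488 genes tested did. None of the 7 had an unadjusted p under 0.05, and DESeq2 also called 0 members. The log2 fold change (double-mutant over control) was -0.89 ± 0.44 (SE) for Scgb2b26, with an adjusted p of 0.135 in edgeR. Its direction was the same in 26 of 26 fits that left out 1 gland each (-1.26 to -0.78), and it passed the threshold in the fit without double-mutant P90 replicate 7 (edgeR, adjusted p = 0.0152). The change was -0.31 ± 0.39 (SE) for Scgb1b27 and -0.17 ± 0.37 (SE) for Scgb2b27 (edgeR, adjusted p = 0.577 and 0.773). Scaling by library totals alone, which took the median of all genes from 0.02 to 0.68 (log2), turned both values to 0.16 and 0.31, that is -0.52 and -0.37 relative to that median. Over the 7 members the median log2 fold change was -0.17, beside 0.02 over all genes tested. In bulk tissue and in summed cells alike, fewer cells of a type and less RNA per cell cannot be told apart.

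The Scgb2b genes did not keep the same proportion in the 2 genotypes. The Scgb2b26 share, defined as Scgb2b26 UMIs as a percentage of Scgb2b26 plus Scgb2b27 UMIs, does not depend on how libraries are scaled. Its lowest, median and highest values were 20.9%, 37.4% and 47.2% over the 12 control glands, and 7.72%, 28.5% and 35.8% over the 14 double-mutant glands. The means were 36.2% ± 7.3 (SD, n = 12) and 24.5% ± 9.3 (SD, n = 14), a difference of -11.7 percentage points (two-sided permutation test, p = 0.00171, adjusted p = 0.0359 over 21 tests of 3 ratios in 7 comparisons). Without the 2 libraries that went against their sex labels the difference was -10.0 points and missed the threshold after adjustment (permutation test, p = 0.00511, adjusted p = 0.0537). Of the double-mutant glands, 5 of 14 lay below all control glands, and none lay above them.

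At P90 the groups did not overlap. Control glands lay between 30.5% and 47.2% (median 35.7%), and double-mutant glands between 7.72% and 30.3% (median 20.2%), so that 7 of 7 double-mutant glands lay below all 6 control glands. The difference was -16.6 points, from 36.5% ± 6.1 (SD, n = 6) to 19.9% ± 9.6 (SD, n = 7), in a two-sided exact permutation test (p = 0.0035, adjusted p = 0.0367). The 2 lowest glands were double-mutant replicates 5 and 6, with 7.72% and 8.68%, and these also had the highest Muc19, a gel-forming mucin, at 3521 and 6560 CPM, against 0 to 2605 CPM in the other glands. Without replicate 5 and double-mutant P40 replicate 1, the libraries that went against their sex labels, the P90 difference was -14.6 points (exact permutation test, p = 0.00216, adjusted p = 0.0455). At P40 control glands lay between 20.9% and 44.3% (median 39.1%) and double-mutant glands between 18.5% and 35.8% (median 32.3%). These groups overlapped, and the difference of -6.79 points was not larger than the spread between glands (exact permutation test, p = 0.147, adjusted p = 0.387). Without double-mutant P40 replicate 1 it was -5.49 points (exact permutation test, p = 0.253, adjusted p = 0.532).

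The share was also lower in double-mutant glands within most batches. Batches are the numbered experiments in the sample titles, and 5 of them held both genotypes. The double-mutant mean was lower by 18.4 points in batch 8 (2 against 2 glands), by 9.87 points in batch 9 (1 against 2), by 21.3 points in batch 12 (2 against 2, of mixed stages) and by 3.57 points in batch 14 (1 against 3). In batch 13 (3 against 1) it was higher by 5.01 points, its only control gland being the control with the lowest share of all, 20.9%. Among glands of the same stage the difference was -7.69 points in batch 12 (1 against 2 glands at P40), without the P90 gland of 8.68%, and 3.26 points in batch 13 (2 against 1 at P40).

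**Figure D2:**
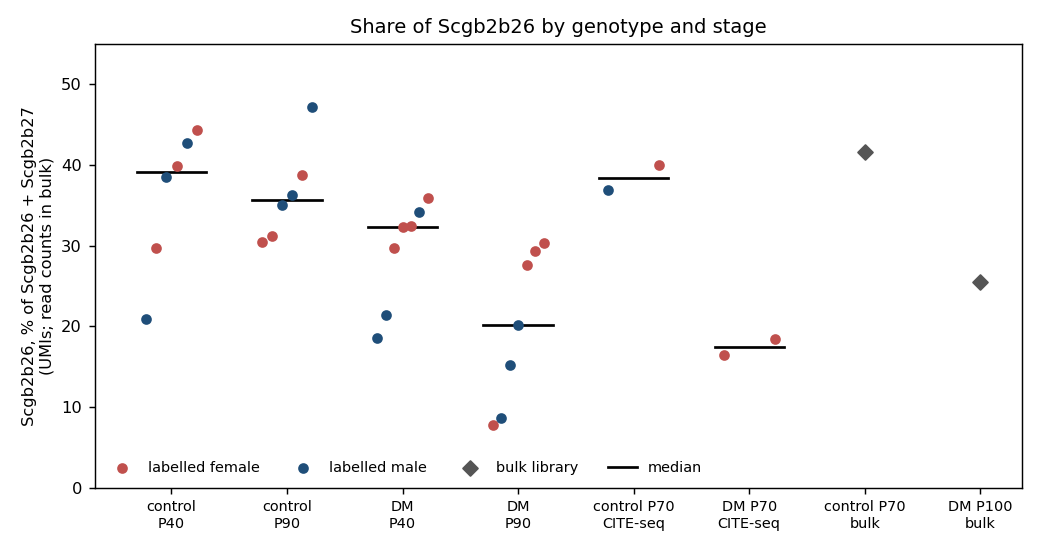
The Scgb2b26 share, as a percentage of Scgb2b26 plus Scgb2b27 UMIs (reads in bulk), on the y axis, by genotype, stage and assay on the x axis (DM, double-mutant), with 1 point per library coloured by labelled sex, diamonds for the bulk libraries and a line at the median of each group. All 7 double-mutant glands at P90 lie below all 6 control glands at P90, and the 2 CITE-seq double-mutant glands (16.4% and 18.4%) lie below the 2 control glands (36.9% and 39.9%).

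Libraries that had no part in these tests gave the following values. In CITE-seq, the share was 36.9% and 39.9% in the control glands and 18.4% and 16.4% in the double-mutant glands. With 2 glands a group no exact test can reach 0.05. Scgb2b26 stood at 31637 and 36971 CPM in control and at 10290 and 6582 CPM in double-mutant glands, whereas Scgb2b27 stood at 54004 and 55585 CPM against 45678 and 33484 CPM and Scgb1b27 at 90133 and 91698 CPM against 60896 and 44668 CPM. All 3 genes were thus lower in both double-mutant CITE-seq glands than in both controls, and the difference was widest for Scgb2b26.

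In bulk RNA-seq, Scgb1b27 had 1930699 reads in the control library and 3799490 in the double-mutant library, at total counts of 34515744 and 34729551. Scgb2b27 had 1183547 and 2709399 reads, and Scgb2b26 had 844661 and 924470 reads. In CPM, Scgb1b27 went from 55937 to 109402 and Scgb2b27 from 34290 to 78014, while Scgb2b26 was near level at 24472 and 26619. The Scgb2b26 share of reads was 41.6% (95% Clopper-Pearson interval 41.6% to 41.7%, counting error only) in the control and 25.4% (25.4% to 25.5%) in the double-mutant library. Per length, in TPM, the share was 65.9% and 48.1%. Muc19 was at 0.840 and 0.374 CPM in these 2 libraries. There is 1 bulk library for each genotype, of different ages, so these values have no replicate check.

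Stage was compared within each genotype. In control glands Scgb2b27 had 46149 CPM at the lowest, 56454 at the median and 65599 at the highest at P40, and 27154, 38638 and 50621 CPM at P90. The groups overlapped in part, and the log2 fold change (P90 over P40) of -1.01 ± 0.54 (SE) did not pass the test (edgeR, adjusted p = 0.335). Scgb1b27 changed by -0.71 ± 0.58 (SE) and Scgb2b26 by -0.90 ± 0.65 (SE), with adjusted p of 0.580 and 0.521 in edgeR. Scgb2b2, a beta or gamma gene of low level, had 23.3, 50.9 and 107 CPM at P40 and 42.9, 160 and 213 CPM at P90, with a log2 fold change of 1.21 ± 0.47 (SE), unadjusted p = 0.0153 and adjusted p = 0.142 in edgeR. In this comparison 0 of 7 members were called by edgeR and by DESeq2, 1 of 7 had an unadjusted p under 0.05, and 5.04% of 11420 genes were called. No batch held control glands of both ages, so age and batch cannot be told apart here.

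In double-mutant glands, edgeR called 0 members between P40 and P90, 0 of 7 had an unadjusted p under 0.05, and 0% of 11420 genes were called (1122 genes at an unadjusted p under 0.05, and 35 genes higher, 5 lower and 0 members called by DESeq2). The largest change among the abundant members was -0.72 ± 0.60 (SE) for Scgb2b26 (edgeR, adjusted p = 0.735). The Scgb2b26 share averaged 29.2% ± 6.6 (SD, n = 7) in double-mutant P40 glands, against 19.9% ± 9.6 (SD, n = 7) for those of P90, a difference of -9.32 points (exact permutation test, p = 0.0583, adjusted p = 0.245). Without double-mutant P90 replicate 4 it was -10.6 points (exact permutation test, p = 0.0425, adjusted p = 0.182). Without the 2 libraries that went against their sex labels it was -8.60 points (exact permutation test, p = 0.0693, adjusted p = 0.208). In control glands it differed by 0.493 points (exact permutation test, p = 0.907). Between genotypes edgeR called 0 members at P40, beside 1.36% of genes, and 0 members at P90, beside 8.07% of genes. DESeq2 called 0 members as well, with 628 genes higher and 103 lower of 11414 at P40 and 1081 higher and 423 lower at P90. At P90, Scgb2b2 had a log2 fold change of -1.09 ± 0.45 (SE), unadjusted p = 0.0238 and adjusted p = 0.126 in edgeR, and 0.038 without double-mutant replicate 4, which had the highest Scgb2b2 level of its group, 319 CPM. The difference between the 2 genotype effects, tested as an interaction, called 0 members (edgeR and DESeq2) and 0.00876% of genes, and Scgb2b2 at -1.41 ± 0.64 (SE) was the one member with an unadjusted p under 0.05 (0.0356, adjusted p = 0.874).

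Sex was compared because the proteins are named for binding androgen. Male over female log2 fold changes in control glands were 0.31 ± 0.58 (SE) for Scgb1b27, 0.28 ± 0.54 (SE) for Scgb2b27 and 0.39 ± 0.63 (SE) for Scgb2b26, and all 3 turned to between -0.13 and -0.020 on library totals alone, which took the median of all genes from -0.04 to -0.48. None of the 7 members was called in either genotype or in the interaction by edgeR or DESeq2, and none had an unadjusted p under 0.05. Of all genes, 0.56% were called by edgeR between the sexes of control glands, 0% in double-mutant glands and 0% in the interaction. In the same control comparison, 5 of 10 granular duct genes known to respond to androgen rose in males, with a median of 4.29 over the 10 genes. Egf, the epidermal growth factor gene, was one of them at 4.86 (edgeR, adjusted p = 0.0023). Leaving out the libraries that went against their sex labels called no member in double-mutant glands. The Scgb2b26 share in double-mutant glands averaged 19.7% ± 8.4 (SD, n = 6) in labelled males and 28.2% ± 8.6 (SD, n = 8) in labelled females, a difference of -8.48 points (exact permutation test, p = 0.0959, adjusted p = 0.288). Without these 2 libraries it averaged 19.4% ± 9.4 (SD, n = 5) in males and 31.1% ± 2.7 (SD, n = 7) in females, with 4 of 5 males below all females, a difference of -11.7 points (exact permutation test, p = 0.00884, adjusted p = 0.0619). In control glands the share differed by 1.08 points between the sexes (exact permutation test, p = 0.818), and the difference between the genotypes in this respect was not tested for the share.

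Cells of the 26 glands were grouped into 22 cell types and clusters, with every secretoglobin gene left out of the clustering, so that member levels played no part in forming them. Types were named with "-like" from marker genes, and clusters with fewer than 3 markers were called by a leading gene. Acinar-like cells, named as serous secretory cells by Prol1, Lpo and Car6, made up 23.6% of all cells and held 63.2% of member UMIs. Aqp5, also listed, marked only some of the clusters joined under this name, and Bpifa2, Smr3a and Mucl2 marked none. Pooled over glands, Bpifa2 was at 148 CPM in acinar-like and 37332 CPM in Dcpp-like cells. Aqp5 was at 255 CPM in acinar-like cells and 672 CPM in a cluster led by Muc19. Unnamed clusters led by Gm12873, Gm15564, Spt1 and Mup5 held a further 17.3%, 6.14%, 2.25% and 1.30%. Among the leading genes of the Spt1 and Mup5 clusters were the acinar markers Prol1 and Car6, those of the Gm12873 cluster included Pip and Smgc, and the Gm15564 cluster was led by noncoding and ribosomal RNA genes. In a gland, these 5 groups together held 66.5% of member UMIs at the lowest, 90.2% at the median and 97.0% at the highest.

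The order of the levels by cell type was broadly alike for the 3 abundant members, but not for Dcpp-like cells. Per gland, Scgb1b27 in acinar-like cells ranged from 71594 to 139522 CPM with a median of 99366 CPM (26 glands). The medians of the other 4 clusters of high level lay between 71250 and 116307 CPM. Luminal Clu-like cells, of which 94.5% came from double-mutant glands, had 6428 CPM at the lowest, 56530 at the median and 111505 at the highest (14 glands), and myoepithelial-like cells 1483, 39791 and 68930 CPM (14 glands). Duct cells stood lower, with medians of 25047 CPM in Smgc Esp4-like, 9266 in progenitor-like, 8047 in Klk1-like and 2146 in granular Egf-like cells. Luminal Dcpp-like cells, named for demilune and parotid protein genes, had a median of 8833 CPM and a cluster led by Muc19 had 3649 CPM, both over 14 glands. In the order by mean log2 level, Dcpp-like cells stood at place 11 for Scgb1b27, place 9 for Scgb2b27 and place 18 for Scgb2b26. Immune, endothelial and other stromal types had medians between 3116 and 24838 CPM.

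Acinar-like cells exceeded Klk1-like duct cells of the same gland by 3.84 (log2, 26 glands) and Dcpp-like cells by 3.38 (14 glands), in two-sided sign-flip permutation tests (p = 1e-05, the smallest that 100000 resamples can give, and exact p = 0.000122). Neighbours in the order mostly did not differ beyond their spread. Of 59 neighbouring pairs tested over the 3 genes, 1 passed an adjusted p of 0.05: Scgb2b26 was higher in the Gm15564 cluster than in Clu-like cells by 1.28 ± 1.11 (log2, SD), in 14 of 14 glands (exact sign-flip permutation test, adjusted p = 0.0072). Scgb1b27 in acinar-like cells also exceeded that in endothelial-like (2.28, 22 glands) and myeloid-like cells (2.61, 24 glands) of the same gland (sign-flip permutation tests, p = 1e-05 each). Klk1-like exceeded granular Egf-like cells by 2.07 (11 glands, exact sign-flip permutation test, p = 0.000977). The same pairs were tested for Scgb2b27 and Scgb2b26, all in the same direction. These p-values are unadjusted, and the levels of no other types further apart were tested.

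The mean level of a type hid how uneven its cells were. In the median cell the members made up 19.7% of the UMIs in acinar-like cells and 16.9% to 21.5% in the 5 groups of high level. In the other 17 types the median cell held between 0.311% (granular Egf-like) and 1.47% (Dcpp-like). In those 17 types the 10% of cells with the most member UMIs held 54.5% to 94.3% of the member UMIs of the type, against 35.4% to 46.2% in the 5 high groups. A minority of cells thus carried the level of types such as endothelial-like and myeloid-like cells, where that 10% held 94.3% and 91.3%. Among Clu-like cells, 28.2% of cells had over 5% of their UMIs in members and 51.2% had under 1%, and 26.2% of myoepithelial-like cells had over 5%.

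**Figure D3:**
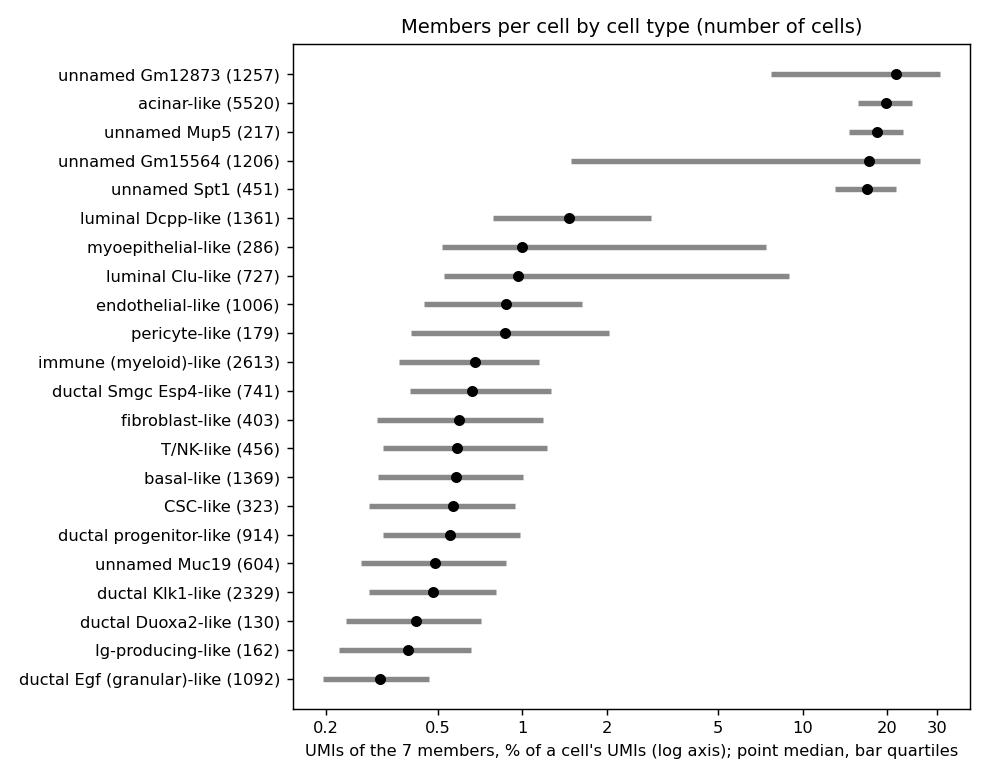
UMIs of the 7 members as a percentage of all UMIs of a cell, on a log x axis, for 22 cell types and clusters on the y axis (number of cells in parentheses), with points at the median cell and bars from the lower to the upper quartile. The 5 groups at the top have medians of 16.9% to 21.5%, and the other 17 have medians of 0.311% to 1.47%.

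Cells that should lack these genes also held their UMIs. With every cell thinned to 500 UMIs (2975 shallower cells left out), 98.5% of acinar-like cells had a UMI of Scgb1b27, with medians of 38 to 50 UMIs in the 5 high groups. In the other 17 types 54.1% to 87.7% of thinned cells had one, with medians of 1 to 3 UMIs, including 73.5% of T/NK-like and 60.1% of Ig-producing cells. Unthinned, the shares were 93.4% to 100% in the 5 high groups, at median depths of 1547 to 4021 UMIs per cell, and 73.2% to 96.0% in the other types, at median depths of 586 to 4135 UMIs. T/NK-like cells should lack these genes, and shares in other types at or below theirs are not told apart from background here. Only 260 of 456 T/NK-like cells reached 500 UMIs, so this level rests on the deeper cells. Of these, 48.8% had a UMI of Scgb2b26 after thinning, against 40.8% of all T/NK-like cells before it. A share above the T/NK-like level is not by itself read as expression. For Scgb1b27 it was 83.0% in endothelial-like, 82.1% in pericyte-like, 75.2% in fibroblast-like and 74.6% in myeloid-like cells. No doublet caller was run. Dcpp-like and granular Egf-like cells, at 65.6% and 54.1% of thinned cells, fall under the T/NK-like level for Scgb1b27. Before thinning, the median Dcpp-like cell held 10 UMIs of Scgb1b27 and the median T/NK-like cell 1, at median depths of 4135 and 586 UMIs. For Scgb2b27 the median thinned cell held 31 to 41 UMIs in the 5 high groups and 0 to 6 UMIs in the others, where Dcpp-like cells had the highest value.

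The Scgb2b26 share set Dcpp-like cells and the Muc19-led cluster apart. Pooled over glands, it was 34.8% (95% Clopper-Pearson interval 34.8% to 34.9%) in acinar-like cells, 7.83% (7.69% to 7.96%) in Dcpp-like cells and 12.3% (11.6% to 12.9%) in the Muc19-led cluster, counting error only. Per gland it lay between 1.82% and 23.7% in Dcpp-like cells (median 9.55%) and between 3.24% and 28.0% in the Muc19-led cluster (median 14.5%), both over 14 glands. The difference from acinar-like cells of the same gland was -21.7 ± 9.9 points (SD) for Dcpp-like cells and -18.4 ± 9.0 points (SD) for the Muc19-led cluster, in 14 of 14 glands each (exact sign-flip permutation tests, p = 0.000122 each, adjusted p = 0.00104 over 40 tests). In these cells Scgb2b27 thus exceeded Scgb2b26 by more than in acinar-like cells of the same gland. Of cells thinned to 500 UMIs, 95.2% of Dcpp-like and 66.1% of Muc19-led cells had a UMI of Scgb2b27, against 66.2% of T/NK-like cells. By this measure alone the Muc19-led cluster was not told apart from background, whereas its pooled Scgb2b26 share of 12.3% lay under the 35.7% of T/NK-like cells. These comparisons of Dcpp-like cells and the Muc19-led cluster were chosen after their values had been seen.

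All of the 18 other types also had a lower mean share than acinar-like cells of the same gland, by 0.753 to 8.02 points, and 14 of the 18 passed an adjusted p of 0.05. Myeloid-like cells, which should lack these genes, were among them with -3.55 ± 3.95 points (SD, 19 of 24 glands, permutation test, adjusted p = 0.00104). Their median over 24 glands was 27.8%. The alpha share also differed from that of acinar-like cells, by -9.26 ± 5.55 points (SD) in Dcpp-like cells and by -8.04 ± 9.10 points (SD) in the Muc19-led cluster, lower in 12 of 14 glands each.

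**Figure D4:**
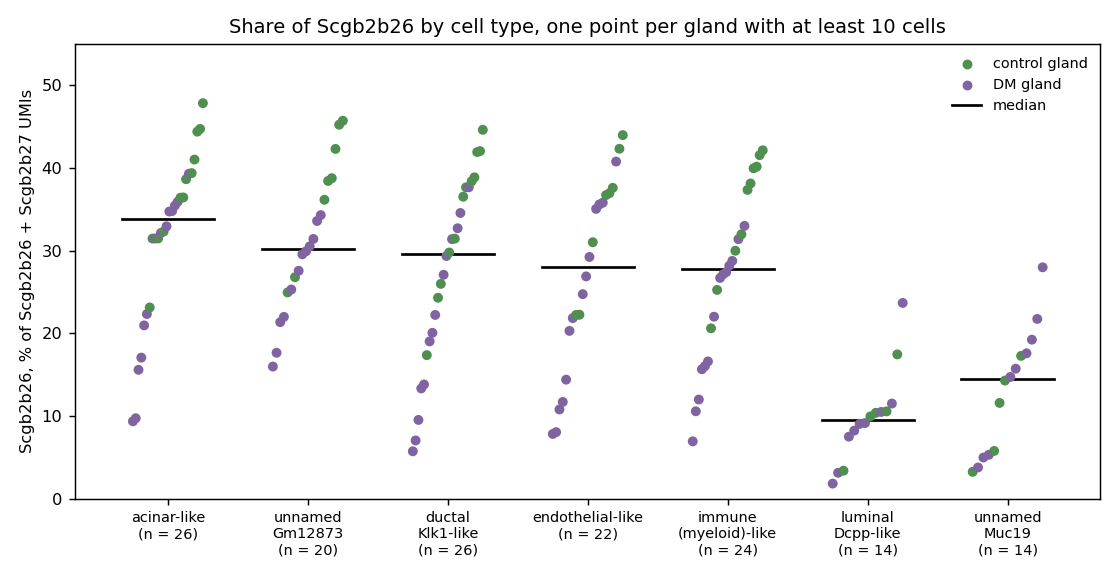
The Scgb2b26 share, as a percentage of Scgb2b26 plus Scgb2b27 UMIs, on the y axis, for 7 cell types and clusters on the x axis, with 1 point per gland of at least 10 cells of the type, coloured by genotype (DM, double-mutant), and a line at the median. Dcpp-like cells and the Muc19-led cluster have medians of 9.55% and 14.5%, below the 27.8% to 33.8% of the other types shown.

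Genotype was then compared within cell types, over glands with at least 10 cells of a type. In acinar-like cells the Scgb2b26 share lay between 23.1% and 47.8% in 12 control glands (median 37.5%) and between 9.35% and 39.3% in 14 double-mutant glands (median 31.8%). The means differed by -10.7 points, 37.3% ± 7.0 against 26.6% ± 10.4 (SD; permutation test, p = 0.0059, adjusted p = 0.0326 over 28 tests), which is close to the difference of -11.7 points in whole glands. The share was also lower at an adjusted p under 0.05 in the other clusters of high level that could be tested, Gm12873 (-10.7 points), Gm15564 (-10.3) and Spt1 (-15.1). Myeloid-like (-13.1), Klk1-like (-12.4), basal-like (-11.8), progenitor-like (-11.5) and Smgc Esp4-like cells (-14.6) passed too. In the median cell of each of these types, however, the members made up under 1% of the UMIs. Their share differed from that of acinar-like cells of the same gland by -3.55 (myeloid-like) to -5.04 points (progenitor-like), each at an adjusted p under 0.05 (sign-flip permutation tests). How far acinar RNA of the same gland made up the member UMIs in these types was not tested. In Dcpp-like cells it differed by -0.954 points (exact permutation test, p = 0.776) and in the Muc19-led cluster by 4.13 points (p = 0.342, exact permutation test), over 9 double-mutant and 5 control glands. Cell make-up moved with genotype: acinar-like cells were 17.1%, 32.0% and 62.9% of the cells at the lowest, median and highest control gland and 4.05%, 11.3% and 37.9% in double-mutant glands, and Dcpp-like cells with the Muc19-led cluster held at most 7.46% of the member UMIs of any gland.

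The levels of single members within types gave 5 calls in 14 types. In acinar-like cells, where 1.66% of 3609 genes were called, Scgb2b1 was higher in double-mutant glands with a log2 fold change of 1.31 ± 0.32 (SE; edgeR, adjusted p = 0.0261). Scgb2b1 had 52.4, 118 and 213 CPM at the lowest, median and highest control gland and 42.3, 261 and 908 CPM in double-mutant glands, so the groups overlapped. Without double-mutant P90 replicate 4 the change was 1.11 and the adjusted p was 0.0544. The abundant members were not called in these cells: Scgb1b27 changed by 0.26 ± 0.18 (SE), Scgb2b27 by 0.40 ± 0.16 (SE) and Scgb2b26 by -0.45 ± 0.25 (SE), with adjusted p of 0.594, 0.256 and 0.459 in edgeR. DESeq2 called Scgb2b27 at 0.41 (adjusted p = 0.0177).

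The other calls fell in types in whose median cell the members made up under 1% of the UMIs. In myeloid-like cells, where 10.6% of 1785 genes were called, Scgb2b26 had 1762, 14333 and 37302 CPM at the lowest, median and highest of 10 control glands and 481, 2563 and 15903 CPM in 14 double-mutant glands. It fell by 2.65 ± 0.62 (log2, SE; edgeR, adjusted p = 0.00783), Scgb1b27 changed by -2.0 ± 0.59 (edgeR, adjusted p = 0.0299) and Scgb2b27 by -1.96 ± 0.58 (edgeR, adjusted p = 0.0302), and the genotypes overlapped for each. In progenitor-like duct cells, where 1.85% of 971 genes were called, Scgb2b26 fell by 2.13 ± 0.52 (log2, SE; edgeR, adjusted p = 0.0203), from a median of 7984 CPM (390 to 18412) in control to 1337 CPM (0 to 4014) in double-mutant glands. With a minimum of 30 cells per gland, none of these 4 was called, at -0.91, -0.81 and -1.78 for Scgb1b27, Scgb2b27 and Scgb2b26 in myeloid-like cells and -1.07 for Scgb2b26 in progenitor-like cells. With cells thinned to 500 UMIs, 39.6% of myeloid-like and 35.5% of progenitor-like cells had a UMI of Scgb2b26. Both lay below the 48.8% of T/NK-like cells, so these Scgb2b26 values are not told apart from background. For Scgb1b27 and Scgb2b27 the myeloid-like shares were 74.6% and 74.4%, above the 73.5% and 66.2% of T/NK-like cells. Acinar-like cells, the main holders of member UMIs, were fewer in double-mutant glands as given above, and their part in these values was not tested. In the other 11 types edgeR called 0 members. The percentage of genes called was 11.2 in basal-like, 3.28 in Gm15564, 2.04 in Smgc Esp4-like, 0.794 in Gm12873, 0.655 in Dcpp-like, 0.623 in Spt1, 0.588 in Muc19-led, 0.391 in Klk1-like, 0.0955 in endothelial-like and 0 in T/NK-like and myoepithelial-like cells. DESeq2 called 1 member in these types, Scgb2b1 in the Gm12873 cluster at 2.17 (adjusted p = 0.0102).

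The remaining 4 members were rare in Drop-seq and nearly absent from bulk tissue. Scgb1b26-ps ranged from 75.8 to 655 CPM over the 26 glands with a median of 201 CPM, Scgb2b1 from 36.7 to 487 CPM with a median of 109 CPM, Scgb2b2 from 23.3 to 319 CPM with a median of 89.8 CPM and Scgb1b30 from 23.1 to 261 CPM with a median of 79.1 CPM. Scaled to the abundant gene of their kind, they gave 1.39 to 10.7 (Scgb1b26-ps) and 0.423 to 4.84 (Scgb1b30) per 1000 UMIs of Scgb1b27, and 0.845 to 10.7 (Scgb2b1) and 0.377 to 7.92 (Scgb2b2) per 1000 UMIs of Scgb2b27. In bulk, the control and double-mutant libraries held 138 and 58 reads of Scgb1b26-ps, 0 and 1 of Scgb1b30, 0 and 0 of Scgb2b1 and 1 and 4 of Scgb2b2, where 3 counts correspond to 0.0869 and 0.0864 CPM. Each of these genes was thus far lower in bulk tissue than in any Drop-seq gland, while the abundant members in bulk lay within the range of the glands, apart from Scgb1b27 in the double-mutant library, which lay above it.

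**Figure D5:**
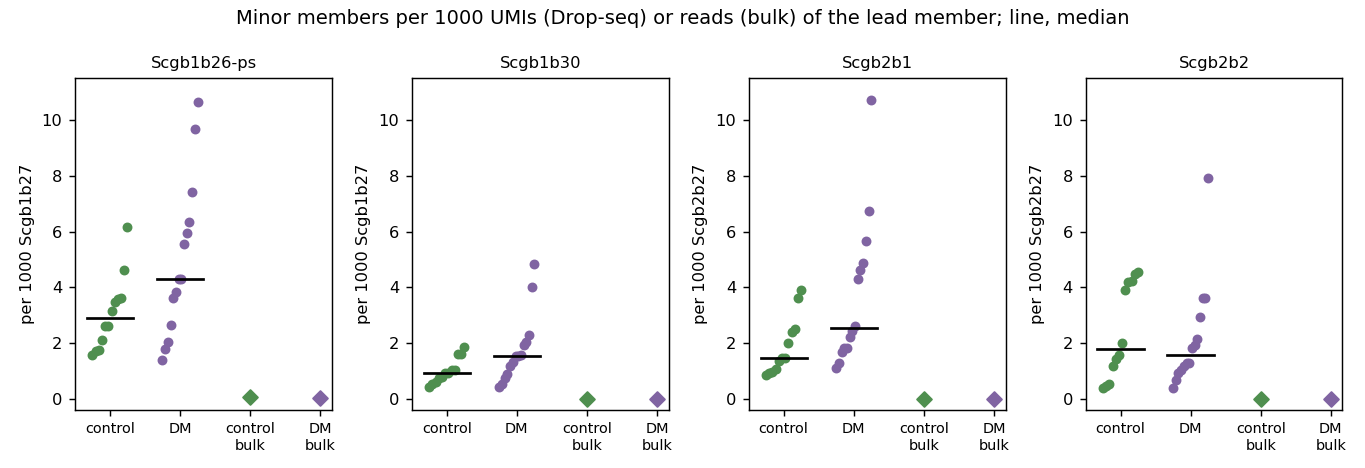
Scgb1b26-ps and Scgb1b30 per 1000 UMIs of Scgb1b27, and Scgb2b1 and Scgb2b2 per 1000 UMIs of Scgb2b27, on the y axes, for control and double-mutant (DM) Drop-seq glands (circles, 1 per gland, with a line at the median) and for the 2 bulk libraries (diamonds, per 1000 reads). The glands lie between 0.377 and 10.7 per 1000, and the bulk libraries lie near 0 for all 4 genes.

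Reads can be shared between these genes, so that a count may belong to a near-identical copy. The transcripts of Scgb1b27 were identical to Scgb1b26-ps at 90.4% of aligned bases and to Scgb1b30 at 90.2%, and Scgb2b27 to Scgb2b26 at 81.5%. Of all stretches of 50 bases in their transcripts, 12.4% in Scgb1b26-ps, 1.13% in Scgb1b30, 9.13% in Scgb2b2 and 0% in Scgb2b1 lay within 1 difference of an abundant member. For Scgb2b27 and Scgb2b26 themselves the values were 11.9% and 10.4%, so their counts are uncertain by the reads that fall there. The transcripts compared for Scgb2b1, Scgb1b27 and Scgb2b27 were shorter than the exons counted for these genes in bulk. Stretches were also taken along whole transcripts, whereas Drop-seq counts their ends. Sharing of reads outside these stretches was not tested, so the 0% does not show that Scgb2b1 counts are free of it. Across the 22 cell types the minor members followed Scgb1b27, with Spearman's rho of 0.93 to 0.98 over pooled levels. Their values are given as counted.

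Other secretoglobin genes formed a larger family of low level. Of 47 others detected in the glands, 21 exceeded 10 CPM in a gland or bulk library. Scgb2b24 was the most abundant, with 67.9 to 601 CPM and a median of 150 CPM. Between genotypes, 17 of them were tested in whole glands, 1 rose and 1 fell, with a median of 0.01, beside 22% of all genes called. Scgb2b20 rose with a log2 fold change of 2.67 ± 0.72 (SE; edgeR, adjusted p = 0.0111), from a lowest value of 0.300 to a highest of 305 CPM over the glands, the latter in double-mutant P90 replicate 1. Scgb1c1 fell by 1.35 ± 0.48 (log2, SE; edgeR, adjusted p = 0.0425). In bulk, 62 other secretoglobin genes together had 203 reads in the control and 21933 in the double-mutant library, of which 12608 were of Scgb2b20, 3704 of Scgb1b20, 2358 of Scgb2b24 and 2264 of Scgb2b7, against 0, 0, 4 and 0 in the control. That gland held 1089 of the 1440 Scgb2b20 UMIs of Drop-seq, 1082 of them in the Gm12873 cluster. The genotype call held in 26 of 26 fits that left out 1 gland each, at 1.96 to 2.86, whereas that of Scgb1c1 held in 12 of 26. Pooled over the other 25 glands, Scgb2b20 was at 20.2 CPM in the Gm12873 cluster, at 4.07 CPM in acinar-like cells and at 150 CPM in CSC-like cells (cancer stem cell-like), the last from 44 UMIs. Between stages in control glands, 4 of 18 tested rose at P90: Scgb2b19 by 3.54, Scgb2b6 by 2.43, Scgb2b25-ps by 2.07 and Scgb2b21 by 2.05 (log2; edgeR, adjusted p of 0.0072 to 0.0323). Of all 11420 genes tested, 5.04% were called in this comparison, in which age and batch cannot be told apart. With 1 gland left out, Scgb2b19 was called in 26 of 26 fits, Scgb2b21 in 23, Scgb2b6 in 20 and Scgb2b25-ps in 18.

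Other secreted products of the gland served as a comparison. Of 15 acinar genes listed, 12 were tested between genotypes in whole glands, 0 rose and 1 fell, with a median of -0.75. The one that fell was Aqp5, the water channel of acinar cells, by 1.16 (log2; edgeR, adjusted p = 0.00747). Of 10 granular duct genes, 9 fell, with a median of -2.17. The genes most like Scgb1b27 over the 26 glands were Pip (Spearman's rho 0.66), Grtp1 (0.65), Aldh3b2 (0.59), 9530002B09Rik (0.55) and Folr1 (0.54). Over the 22 cell types they were Pip, Car6, Spt1, Lpo and Mucl1, with rho of 0.94 to 0.96. For Scgb2b27 they were Lpo and Abhd11os (0.62 each), Folr1, Hdac10 and Tspan15 over glands, and Pip, Lpo, Car6, Oit1 and Agt over cell types (0.93 to 0.97). Pip, carbonic anhydrase 6 (Car6) and lactoperoxidase (Lpo) are secreted proteins of saliva.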

How the data were processed

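The deposited Drop-seq and CITE-seq tables hold UMI counts per gene and cell barcode, which the authors made with Drop-seq tools and STAR on mm10 with GENCODE vM7 plus the Cre and EYFP sequences. The deposited bulk tables hold read counts per gene, made with featureCounts on exons. Cells with at least 100 genes and under 15% mitochondrial UMIs were kept (under 2500 genes also in CITE-seq), and UMIs were summed per gland. The surface epitope counts of CITE-seq were not used here.

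Genotype, stage and sex were tested on gland sums with edgeR 4.0.16 (quasi-likelihood, TMM, Benjamini-Hochberg over all genes tested) in R 4.3.3. DESeq2 1.42.0, other scalings, filters, covariates and left-out glands were alternatives. Cells were clustered with scanpy 1.11.5 (2000 variable genes without secretoglobins, 30 components, 20 neighbours, Leiden resolution 1), and sums of at least 10 cells per gland and type were compared. Shares were compared by permutation of glands, exact where feasible and otherwise with 100000 resamples, two-sided. Levels were compared between types as log2(CPM + 1). Intervals and floors (3 counts) cover counting error only. The statistics were tested on simulated data. Genes named are the 7 members, secretoglobins above 10 CPM in a library, the 5 genes most like each of the 2 most abundant members, and the listed acinar and granular duct genes. The members, lists and tests were chosen with earlier results of these data known. Promoters are RefSeq's, on GRCm38.p6, and transcripts are those of GENCODE vM21, which was not the annotation used for counting. Their proteins were not analysed here.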

Additional observations from a re-analysis of the deposited data

Results flagged for a closer look

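Within a group of glands, 4 of 40 sets of values had 1 gland far from the others, where chance gives about 1 in 20. Scgb1b30 was at 246 CPM in double-mutant P40 replicate 5, against 34.9 to 119 CPM in the other 6 glands. Scgb2b2 was at 319 CPM in double-mutant P90 replicate 4, against 46.2 to 118 CPM in the others. The alpha share was 48.5% in control P40 replicate 4, against 39.5% to 42.0% in the others. All 7 members together took 6.59% of UMIs in double-mutant P40 replicate 2, against 15.2% to 20.3% in the others. In the bulk libraries, which entered no test, Scgb2b20 had 12608 reads in the double-mutant and 0 in the control library.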

How the results depend on the processing

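The number of members called between genotypes in whole glands was 3 with library totals alone (Scgb1b26-ps 0.75, Scgb1b30 0.88 and Scgb2b1 1.31, higher in double-mutant glands) and 1 with a replicate block (Scgb2b26 -1.42, adjusted p = 0.0246), against 0 as reported. At P90 it was 1 with library totals (Scgb2b1 1.41), 1 with no low-count filter (Scgb2b2 -1.14) and 1 without double-mutant P90 replicate 4 (Scgb2b2 -1.44). Between stages in control glands it was 1 with no low-count filter (Scgb2b2 1.14). Between genotypes, library totals alone also raised the median of all genes, as given above, and Scgb1b26-ps and Scgb1b30 lay near that raised median. The share of all genes called under these alternatives is not given here. Leaving out each gland in turn gave 0 to 1 calls between genotypes, 0 to 1 at P90 and 0 to 0 between control stages. Replicate numbers did not pair the glands, since only 14 of 37 same-numbered pairs had a correlation of deviations over 0.1 (-0.355 to 0.510), so glands share only a number. With library totals, values reversed for genotype (Scgb1b27 0.16, Scgb2b27 0.31), for genotype at P40 (Scgb1b27 0.13, Scgb2b27 0.13) and P90 (Scgb1b27 0.18), for sex in control glands (Scgb1b27 -0.074, Scgb2b27 -0.13, Scgb2b26 -0.020) and for the genotype by stage difference (Scgb2b26 -0.25). With the replicate block, Scgb2b27 at P90 was -0.28, Scgb2b26 between sexes of double-mutant glands 0.55 and Scgb2b26 by genotype and stage -0.25. Without the 2 libraries that went against their sex labels, Scgb1b27 was 0.090 at P90 and -0.067 between sexes of double-mutant glands. With the Scgb2b members summed, Scgb2b27 was -0.060 at P90 and -0.013 between sexes of double-mutant glands. Leaving out 1 gland moved Scgb1b27 at P90 over -0.59 to 0.092 and Scgb2b27 over -0.32 to 0.37.

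Within cell types, 8 members were called with a replicate block and 1 with at least 30 cells, against 5. Neighbouring pairs of cell types that differed numbered 4 at resolution 0.7, 4 without the 5% of cells with the most UMIs and 0 with control glands alone, against 1. In control glands alone the Scgb2b26 share differed from acinar-like cells by -25.0 points in Dcpp-like cells and by -24.9 points in the Muc19-led cluster, at exact permutation p = 0.0625, the smallest that 5 glands allow. The genotype difference of the share was -12.8 points with a replicate block (exact permutation p = 0.0625) and -13.1 to -10.4 with 1 gland left out, at P90 -18.3 to -14.5. Without the 2 libraries that went against their sex labels the genotype difference of the share was -10.0 points (permutation test, adjusted p = 0.0537). With batch as a covariate Scgb2b26 changed by -1.10 between genotypes. The causes were not tested. Of 460 alternatives other than leaving out 1 gland, 417 were counted as unchanged. Among these, fold changes and shares kept direction and side of the threshold, while counts of calls only had to stay equal or close. Depth limits the minor members, with 4831 to 14754 UMIs over all glands.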
